A study of Mus musculus with 9 samples.

Results

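The antioxidant defence genes described here were 10 genes of the mouse, *Nfe2l2*, *Nqo1*, *Srxn1*, *Gclc*, *Gclm*, *Gpx1*, *Txnrd1*, *Hmox1*, *Sod2* and *Cat*. They were taken by name from the 54232 genes of the count table, and each symbol corresponded to 1 Ensembl gene ID. Their transcripts were measured by RNA-seq in naïve mESCs and in primed mEpiSCs at an early and a late passage, and they encode NRF2, enzymes that clear reactive oxygen species, and enzymes of the glutathione, thioredoxin and heme systems.

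Cells hold reactive oxygen species in check with enzymes that dismutate superoxide and reduce peroxides, and with the thiol systems of glutathione and thioredoxin that keep those enzymes and other proteins reduced. Much of this is set by NRF2, the transcription factor encoded by *Nfe2l2*, which is bound by KEAP1 and degraded in unstressed cells, and which is released by oxidants and electrophiles to bind the antioxidant response element together with a small MAF protein. NRF2 is regulated largely at the level of protein stability, so that its transcript need not follow its activity. Naïve and primed pluripotent cells are known to differ in their use of glycolysis and of mitochondrial respiration, a main source of superoxide.

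Naïve mESCs were a line from C57 × CBA mice with a GFP reporter under the distal *Oct4* promoter, kept in medium with serum and LIF. Primed mEpiSCs were converted from these mESCs in F/A medium, a serum-free medium with Fgf2 and Activin A. Both were grown on feeder cells, mouse embryonic fibroblasts (MEFs) inactivated by mitomycin C, with β-mercaptoethanol in both media. Each state was sequenced at passage 5 (P5) and passage 15 (P15) with 2 libraries, and 1 library was made from MEFs alone. Both states come from 1 line, and the state and its medium cannot be told apart. Nor can the passage be told apart from other differences between P5 and P15 libraries, such as the day of preparation. The study calls the 2 libraries of a group biological repeats, and p-values measure the spread between these libraries only.

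Sequencing depth was 14378051 to 20985136 total counts per naïve or primed library and 25646547 for MEFs. Levels are given in CPM, the depth-scaled count with library sizes corrected by TMM, where a count of 0 would allow up to 0.148 to 0.221 CPM in a naïve or primed library, for counting error only. The summed level of 9 naïve markers was 2123 to 2562 CPM in naïve and 113 to 243 CPM in primed libraries. In primed libraries it was 241 to 243 CPM at P5 and 113 to 116 CPM at P15. That of 8 primed markers was 347 to 367 CPM in naïve and 1160 to 1222 CPM in primed libraries, with *Cer1* at 0 in naïve cells at P5. For 4 markers shared by the states it was 1668 to 1843 CPM in naïve libraries. In primed libraries these had 990 to 994 CPM at P5 and 1291 to 1318 CPM at P15. All 30 fibroblast markers were above 0 in every group. Their summed level was 12426 to 12438 CPM in naïve cells and 7856 to 8002 CPM in primed cells at P5, 20000 to 20777 CPM and 17594 to 18225 CPM at P15, and 92337 CPM in MEFs. *Col1a1*, with 2104 CPM in naïve and 764 CPM in primed cells at P5, made up the largest part of the gap in the sums at P5, and single markers went either way, with 8 of 30 at a higher mean in primed than in naïve cells at P5 and 16 of 30 at P15. At P5 *Dcn* had 40.0 CPM in naïve and 461 CPM in primed cells, *Lum* 12 and 87.8 CPM, *Ccl2* 17.1 and 293 CPM and *Mmp2* 105 and 279 CPM. In MEFs these 4 had 211.5, 148.2, 30.45 and 411.9 CPM. As a percentage of MEFs, the median marker at P15 was higher in primed than in naïve libraries (24% to 24.5% against 21.9% to 23%), unlike the sum. Of 8 extraembryonic endoderm markers *Afp* was at 0 in all but the primed cells at P15 and MEFs, and their sum was higher in primed cells, with 108 to 179 CPM in naïve, 244 to 319 CPM in primed and 438 CPM in MEF libraries. *Dab2* and *Pdgfra* made up the largest parts of the sum in primed cells and were highest in MEFs, at 165 and 199.6 CPM. *Lama1* went the other way, with 78.7 CPM in naïve and 25.7 CPM in primed cells at P5, and 44.1 and 7.22 CPM at P15. For 6 neural markers, none at 0, the sum was 171 to 229 CPM in naïve cells, 233 to 308 CPM in primed cells and 239 CPM in MEFs. *Nes* made up the largest part of it in primed cells. It had 92.1 CPM in naïve and 203 CPM in primed cells at P5, and 119.7 and 265.5 CPM at P15. *Sox1* and *Zic1* also had higher means in primed cells at both passages, whereas those of *Pax6*, *Neurod1* and *Tubb3* were lower. The markers thus shared no direction. The part of these endoderm and neural markers in the results was not tested.

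The promoters of *Nfe2l2*, *Srxn1*, *Gclm* and *Txnrd1* are shown because they held the core of the antioxidant response element, and those of *Nqo1* and *Sod2* because the state difference of these genes changed most between the passages. The core was searched as TGACNNNGC or TGAGNNNGC on both strands in the 250 bases before each RefSeq transcript start (GRCm38.p6), and matches are in capitals. Windows are printed 5′ to 3′ on the strand of the gene.
*Nfe2l2*, chr2:75704664-75704913, minus strand: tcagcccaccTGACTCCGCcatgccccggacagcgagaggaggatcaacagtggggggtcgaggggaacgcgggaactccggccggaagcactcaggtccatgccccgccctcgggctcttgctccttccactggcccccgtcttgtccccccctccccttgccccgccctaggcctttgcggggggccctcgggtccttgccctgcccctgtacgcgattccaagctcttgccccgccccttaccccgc
*Srxn1*, chr2:152105274-152105523, plus strand: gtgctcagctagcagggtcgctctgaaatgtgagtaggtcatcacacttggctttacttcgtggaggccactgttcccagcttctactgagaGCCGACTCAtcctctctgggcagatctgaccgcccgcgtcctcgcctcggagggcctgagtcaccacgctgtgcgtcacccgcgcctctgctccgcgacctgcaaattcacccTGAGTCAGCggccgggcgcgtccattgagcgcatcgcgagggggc
*Gclm*, chr3:122245307-122245556, plus strand: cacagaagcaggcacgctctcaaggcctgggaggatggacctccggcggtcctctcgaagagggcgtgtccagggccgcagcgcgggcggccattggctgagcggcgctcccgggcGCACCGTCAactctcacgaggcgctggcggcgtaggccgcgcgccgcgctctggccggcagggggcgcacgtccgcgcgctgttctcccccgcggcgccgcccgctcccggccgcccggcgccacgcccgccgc
*Txnrd1*, chr10:82858956-82859205, plus strand: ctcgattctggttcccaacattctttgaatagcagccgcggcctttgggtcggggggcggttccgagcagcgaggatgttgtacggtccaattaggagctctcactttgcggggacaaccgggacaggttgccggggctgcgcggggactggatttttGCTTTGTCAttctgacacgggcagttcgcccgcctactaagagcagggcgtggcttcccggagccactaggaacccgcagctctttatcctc
*Nqo1*, chr8:107403206-107403455, minus strand: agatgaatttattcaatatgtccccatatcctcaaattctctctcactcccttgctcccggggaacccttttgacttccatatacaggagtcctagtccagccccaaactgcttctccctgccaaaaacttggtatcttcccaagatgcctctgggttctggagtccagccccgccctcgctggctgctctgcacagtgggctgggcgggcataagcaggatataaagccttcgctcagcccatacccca
*Sod2*, chr17:13007589-13007838, plus strand: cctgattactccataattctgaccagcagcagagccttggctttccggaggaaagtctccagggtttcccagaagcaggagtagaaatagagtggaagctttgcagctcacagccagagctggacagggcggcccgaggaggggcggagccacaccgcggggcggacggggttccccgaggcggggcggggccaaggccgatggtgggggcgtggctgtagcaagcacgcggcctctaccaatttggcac

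*Srxn1* held 2 matches. These were GCCGACTCA, which reads as the TGAGNNNGC form on the other strand, beginning 158 bases before the start, and TGAGTCAGC, beginning 45 bases before it. The latter overlaps TGANTCA, the motif of AP-1. The match of *Nfe2l2* was TGACTCCGC, 240 bases before the start, in a stretch that the annotation also assigns to an exon of the opposite-strand gene *E030042O20Rik*. Those of *Gclm* (GCACCGTCA, 134 bases) and *Txnrd1* (GCTTTGTCA, 92 bases) lie on the other strand. In all, 8 members had a window, 4 of them with a match. Counted by window, 4 of the 10 member windows held a match. Either form was held by 23% of all 32841 windows of the RefSeq set. The windows of *Nqo1*, *Sod2*, *Cat* and *Gpx1*, and the windows of the other starts of *Txnrd1*, held neither form, which says only that these letters are not in the window. A match is a description of the letters and not of binding.

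Every member was expressed in all 9 libraries and passed the filter on low counts in every comparison. Set side by side as CPM per kb of exon, *Gpx1*, which encodes a selenium-dependent glutathione peroxidase, had the highest level, with 249 ± 4.19 in naïve and 149.6 ± 5.31 in primed cells at P5 and 292 ± 11.5 and 187 ± 6.10 at P15 (SD, n = 2 libraries each). *Hmox1* and *Txnrd1* followed, at 90.0 ± 6.41 and 76.5 ± 1.38 CPM per kb in naïve cells at P5. Next came *Cat* at 33.3 ± 1.09 CPM per kb and *Srxn1* at 30.8 ± 1.96 CPM per kb. *Nfe2l2*, *Gclc*, *Nqo1* and *Gclm* had 25.9 ± 0.618, 22.1 ± 0.600, 19.1 ± 0.0447 and 18.2 ± 0.661 CPM per kb in the same cells, and *Sod2* had the lowest level there and in primed cells at P5, where it was at 6.30 ± 0.397 CPM per kb. The annotated exons of *Sod2* add up to 10008 bases over all its transcripts, so that its level per kb may be understated. The order was much the same in all 4 groups, with *Sod2* above *Gclm* in primed cells at P15, at 10.99 ± 0.300 and 8.59 ± 0.426 CPM per kb. Neighbours in the order that differed by no more than the sum of their SDs were *Cat* and *Srxn1* in naïve cells at P5, *Nqo1* and *Gclc* in primed cells at P5, *Hmox1* with *Txnrd1* and *Gclc* with *Nqo1* in naïve cells at P15, and *Txnrd1* with *Cat* and *Nqo1* with *Sod2* in primed cells at P15.

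**Figure D1:**
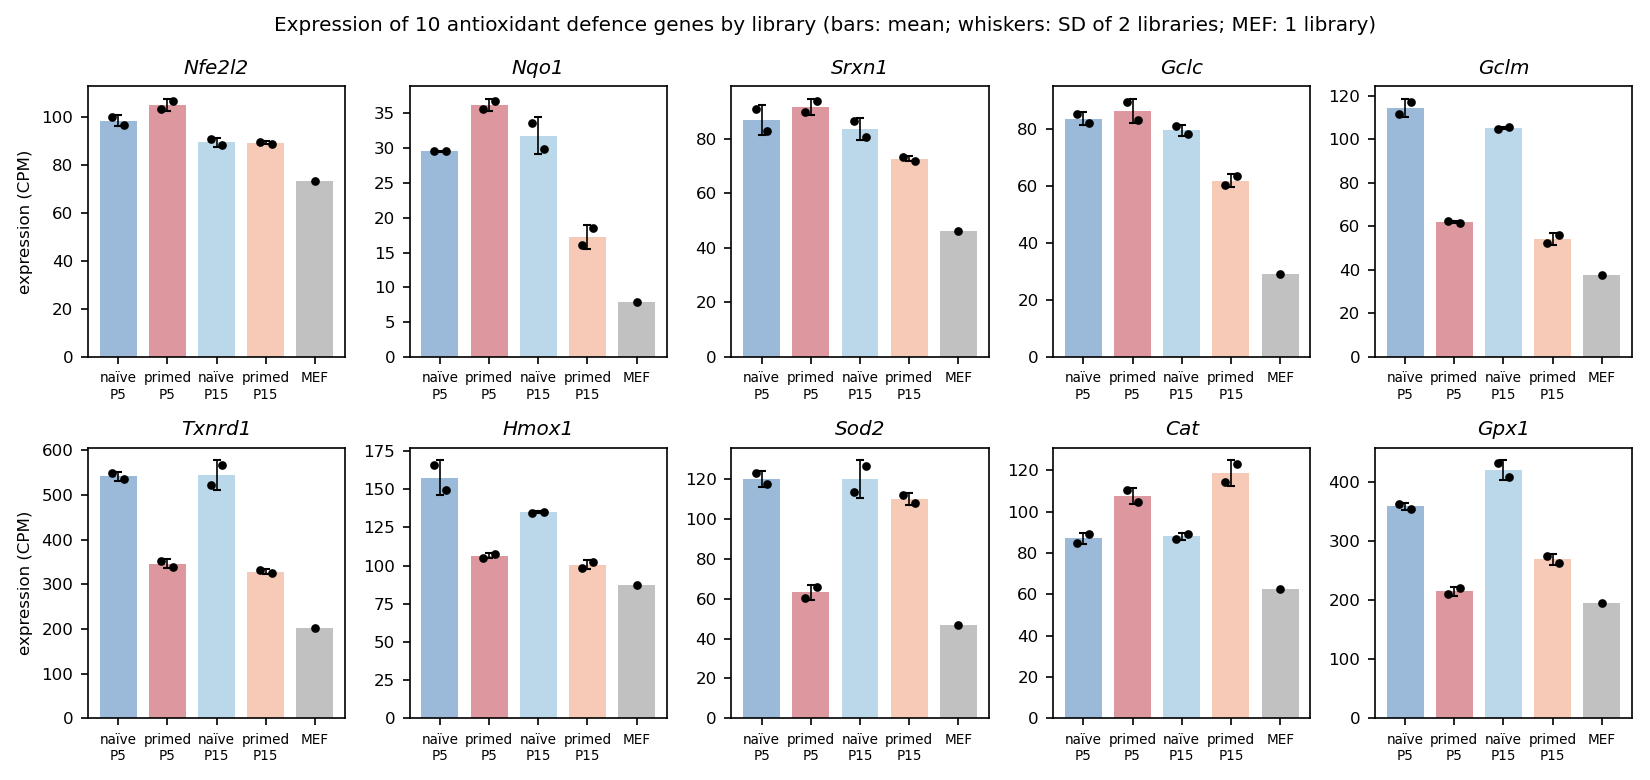
Level of each of the 10 genes by library, with CPM after TMM scaling on the vertical axis of each panel and the 4 groups and MEFs on the horizontal axis; points are libraries, bars their mean and whiskers the SD of 2 libraries, with 1 library for MEFs. *Gclm*, *Txnrd1*, *Hmox1* and *Gpx1* were lower and *Cat* was higher in primed cells at both passages, *Nqo1* fell from 36.2 to 17.2 CPM between the passages of primed cells, and every naïve and primed library was above the MEF library.

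At P5, primed cells had lower transcript levels than naïve cells of *Gclm*, *Gpx1*, *Txnrd1*, *Hmox1* and *Sod2*, and higher levels of *Nqo1* and *Cat*. At P15 *Gclm*, *Gpx1*, *Txnrd1* and *Hmox1* were again lower and *Cat* again higher, while *Nqo1*, *Gclc* and *Srxn1* were lower and *Sod2* no longer passed the test. No member reached a 2-fold difference between the states in these fits, and the largest difference was that of *Gclm* at P15, which was 1.96-fold lower in primed cells. It passed 2-fold with feeder RNA taken off, at −1.03 and −1.07 on the log2 scale, and *Nqo1* at P15 did so, at −1.003, without naïve replicate 2. In bulk RNA, fewer cells with a transcript and less of it per cell cannot be told apart.

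By edgeR's quasi-likelihood test at an adjusted p under 0.01, 7 of the 10 genes were called at P5, 2 higher and 5 lower in primed cells. Of all 16482 genes tested, 62.3% were called, 31.2% higher and 31.1% lower. At P15 it was 8 of 10, 1 higher and 7 lower, against 56.6% of 15733 genes, 28.2% higher and 28.4% lower. With a fold of at least 2 as well, 0 members remained at either passage, against 22.3% of all genes at P5 and 23.2% at P15. The levels of the 2 groups did not overlap for 8 members at P5 and for 9 at P15, against 84.6% and 81.9% of all genes. The median log2 fold change of the members was −0.23 at P5 and −0.40 at P15, beside 0.0078 and −0.0039 for all genes, and the median size of the change was 0.44 and 0.43, beside 0.51 and 0.48. At P5 the share of members called was near that of all genes. Scaling to library size alone, without TMM, moved the median of all genes to 0.21 at P5, where 65.8% of all calls were then higher in place of 50.1%, and to 0.10 at P15. Under it 5 members were called higher and 5 lower at P5, with *Nfe2l2*, *Gclc* and *Srxn1* added as higher, and 1 higher and 6 lower at P15. With feeder RNA taken off in proportion to the fibroblast marker lowest relative to MEFs, the members called were 2 higher and 5 lower at P5 and 1 and 7 at P15, and in proportion to the median marker they were 2 and 5, and 1 and 6 without *Srxn1*.

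**Figure D2:**
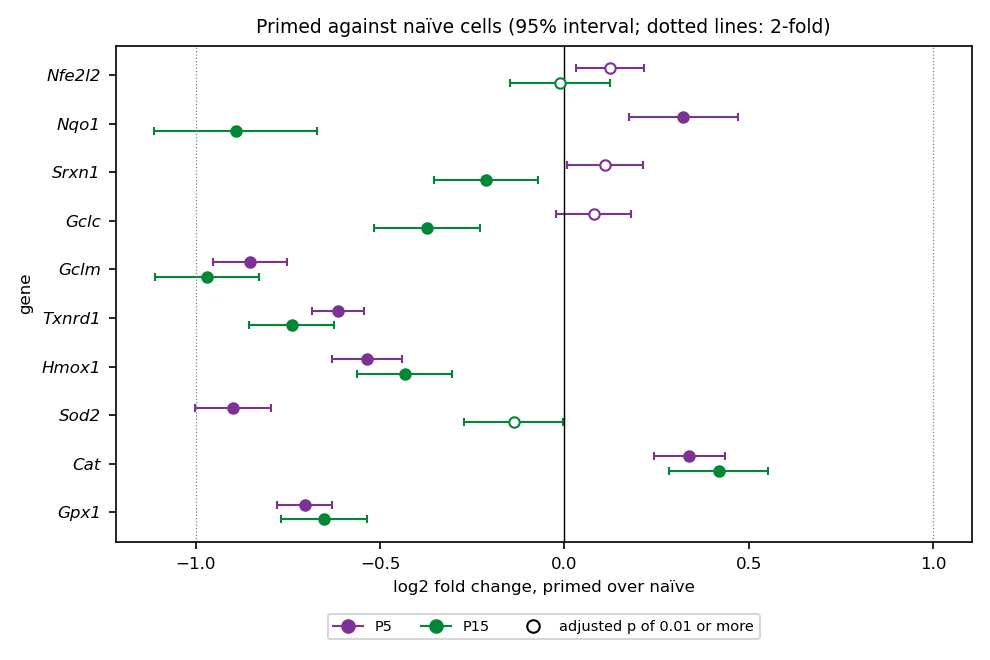
Log2 fold change of primed over naïve cells for each of the 10 genes at P5 (purple) and P15 (green), with the 95% interval of edgeR's quasi-likelihood fit on 2 libraries per group; open symbols did not pass an adjusted p of 0.01, and dotted lines mark a 2-fold change. *Gclm*, *Txnrd1*, *Hmox1* and *Gpx1* lie on the lower side and *Cat* on the higher side at both passages, *Nqo1* lies at 0.32 at P5 and −0.89 at P15, and *Sod2* at −0.90 and −0.14.

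*Nfe2l2* (ENSMUSG00000015839, GRCm38 chromosome 2, 75675513 to 75704641), which encodes NRF2, did not pass the test between the states at either passage. The 2 libraries of naïve cells had 100.1 and 96.8 CPM and those of primed cells 103 and 107 CPM at P5, and at P15 they had 90.7 and 88.1 CPM and 89.6 and 88.8 CPM. Primed libraries were above both naïve libraries at P5, by less than the test asked for, and between the naïve libraries at P15. The log2 fold change was 0.12 (SE 0.046, adjusted p = 0.0173) at P5 and −0.013 (SE 0.067, adjusted p = 0.875) at P15 by edgeR's test, with a 95% interval of −0.15 to 0.12 for the latter. From P5 to P15 its level in primed cells decreased, with a log2 fold change of −0.27 (SE 0.057, adjusted p = 2.60e-04) by the same test. In naïve cells it was lower in both P15 libraries too, with a change of −0.14 (SE 0.052, adjusted p = 0.0844) that did not pass.

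*Nqo1* (ENSMUSG00000003849, chromosome 8, 107388225 to 107403206), the quinone reductase that is widely used as a readout of NRF2, was the one member called in opposite directions at the 2 passages. At P5 naïve libraries had 29.6 and 29.5 CPM and primed libraries 35.6 and 36.8 CPM. At P15 naïve libraries had 33.7 and 29.9 CPM and primed libraries 16.0 and 18.5 CPM. The groups did not overlap at either passage, with primed cells on the high side at P5 and on the low side at P15. By edgeR's test the log2 fold change was 0.32 (SE 0.072, adjusted p = 2.44e-04) at P5 and −0.89 (SE 0.11, adjusted p = 5.56e-09), or 1.86-fold lower, at P15. The difference between these 2 effects was −1.20 (SE 0.13, adjusted p = 6.22e-09) by a test of the interaction over all 8 libraries. In primed cells the level fell by 1.10 on the log2 scale from P5 to P15 (SE 0.091, adjusted p = 7.00e-11 by edgeR's test), while the change in naïve cells was 0.10 (SE 0.085, adjusted p = 0.46). No other member changed by 2-fold or more in any of the comparisons between states or passages.

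*Srxn1* (ENSMUSG00000032802, chromosome 2, 152105516 to 152111376), which encodes sulfiredoxin, the enzyme that restores overoxidised peroxiredoxins, was called lower in primed cells at P15. Naïve and primed libraries had 90.9 and 83.1 CPM and 89.8 and 93.9 CPM at P5, and 86.6 and 80.8 CPM and 73.3 and 72.1 CPM at P15. The groups overlapped at P5, and both primed libraries were below the naïve ones at P15. By edgeR's test the log2 fold change was 0.11 (SE 0.050, adjusted p = 0.0514) at P5 and −0.21 (SE 0.070, adjusted p = 0.00761) at P15, and the difference was −0.31 (SE 0.085, adjusted p = 0.00543). These last calls were narrow. The P15 call was lost in 8 of 13 alternatives, among them library size alone (adjusted p = 0.172), without primed replicate 1 (0.0372) or 2 (0.0741), and without naïve replicate 1 (0.0642, all by edgeR's test). The call on the difference was lost in 8 of 15 alternatives, 5 of them left-out replicates, with an adjusted p by edgeR's test of 0.0732 without naïve replicate 2 at P5, 0.0267 without primed replicate 2 at P5, 0.0311 without naïve replicate 1 at P15, and 0.0122 and 0.0212 without primed replicate 1 or 2 at P15. It was lost too without the low-count filter (0.0102), with the median feeder share taken off (0.0345) and by DESeq2's Wald test (0.0197). The fall in primed cells from P5 to P15, −0.37 (SE 0.060, adjusted p = 7.04e-06) on the log2 scale by edgeR's test, kept an adjusted p of at most 0.00198 under all alternatives tried.

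Of the subunits of glutamate-cysteine ligase, which carries out the rate-limiting step of glutathione synthesis, the modifier was called lower in primed cells at both passages and the catalytic subunit at P15. *Gclm* (ENSMUSG00000028124, chromosome 3, 122245557 to 122270732), whose product lowers feedback inhibition by glutathione, had 111 and 117 CPM in naïve and 62.2 and 61.6 CPM in primed libraries at P5, and 105 and 106 CPM and 52.2 and 56.0 CPM at P15. All 4 primed libraries were far below the 4 naïve ones. The log2 fold change was −0.85 (SE 0.049, adjusted p = 1.32e-15) at P5 and −0.97 (SE 0.070, adjusted p = 8.15e-15) at P15 by edgeR's test. The exons of *Gclm* overlap those of *Gm17494*, an antisense transcript with 0.459 to 1.28 CPM, over 4.71% of their length, and of *Gm6061*, a pseudogene on the same strand without counts, over 3.88%. *Gclc* (ENSMUSG00000032350, chromosome 9, 77754535 to 77794485), the catalytic subunit, had 85.0 and 81.8 CPM in naïve and 89.2 and 83.1 CPM in primed libraries at P5, and 80.8 and 78.1 CPM and 60.1 and 63.4 CPM at P15. The states overlapped at P5 and were apart at P15, with primed cells lower. Its log2 fold change was 0.080 (SE 0.050, adjusted p = 0.153) at P5, with an interval of −0.022 to 0.18, and −0.37 (SE 0.071, adjusted p = 1.92e-05) at P15 by edgeR's test. The difference between the passages was −0.44 (SE 0.085, adjusted p = 1.47e-04), whereas that of *Gclm*, −0.10 (SE 0.084, adjusted p = 0.386), did not pass the same test.

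*Gpx1* (ENSMUSG00000063856, chromosome 9, 108338903 to 108340343), which reduces hydrogen peroxide with glutathione, was lower in primed cells at both passages. Naïve and primed libraries had 363 and 355 CPM and 210.2 and 221 CPM at P5, and 432 and 409 CPM and 276 and 263 CPM at P15. No primed library reached the level of a naïve library. The log2 fold change was −0.70 (SE 0.037, adjusted p = 1.64e-16) at P5 and −0.65 (SE 0.057, adjusted p = 1.86e-12) at P15 by edgeR's test. It was also the one member called between the passages of naïve cells, with an increase of 0.23 (SE 0.044, adjusted p = 0.00306), and it increased in primed cells by 0.29 (SE 0.050, adjusted p = 1.99e-05). The call in naïve cells was lost without naïve replicate 2 at P5, at an adjusted p of 0.0316 by edgeR's test.

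*Txnrd1* (ENSMUSG00000020250, chromosome 10, 82833951 to 82897712), the cytosolic thioredoxin reductase and also a selenoprotein, was lower in primed cells too. Naïve and primed libraries had 549 and 535 CPM and 353 and 339 CPM at P5, and 521 and 568 CPM and 332 and 325 CPM at P15. The states were far apart at both passages with no overlap. Log2 fold changes were −0.61 (SE 0.035, adjusted p = 1.10e-15) at P5 and −0.74 (SE 0.057, adjusted p = 4.52e-14) at P15 by edgeR's test. From P5 to P15 the change was 0.0076 (SE 0.045, adjusted p = 0.929) in naïve and −0.11 (SE 0.047, adjusted p = 0.0522) in primed cells, and neither passed.

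*Hmox1* (ENSMUSG00000005413, chromosome 8, 75093621 to 75100589), the inducible heme oxygenase, which is repressed by BACH1 and activated by NRF2, was lower in primed cells. Its libraries had 166 and 149.7 CPM in naïve and 105 and 108 CPM in primed cells at P5, and 134 and 135 CPM and 98.7 and 103 CPM at P15. The first naïve library at P5 was the highest of all, and the states were apart at both passages. Log2 fold changes were −0.54 (SE 0.046, adjusted p = 1.94e-11) at P5 and −0.43 (SE 0.064, adjusted p = 2.50e-07) at P15 by edgeR's test. Within naïve cells it was lower at P15, with a log2 fold change of −0.22 (SE 0.054, adjusted p = 0.0126) that did not pass, and that passed without naïve replicate 2 at P5, at an adjusted p of 0.00145 by edgeR's test.

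*Sod2* (ENSMUSG00000006818, chromosome 17, 13006846 to 13040063), the manganese superoxide dismutase of mitochondria, was called lower in primed cells at P5 and not at P15. Its libraries had 123 and 117 CPM in naïve and 60.3 and 65.9 CPM in primed cells at P5, and 113 and 127 CPM and 112 and 108 CPM at P15. The 2 primed libraries at P5 stood far below the other 6, and at P15 the primed libraries were just below the lower naïve one. By edgeR's test the log2 fold change was −0.90 (SE 0.050, adjusted p = 8.79e-16), or 1.86-fold lower, at P5 and −0.14 (SE 0.066, adjusted p = 0.0661) at P15, where its 95% interval was −0.27 to −0.0033. The difference between the passages was 0.78 (SE 0.085, adjusted p = 1.14e-08), in the opposite direction to that of *Nqo1*. In primed cells the level rose 1.71-fold from P5 to P15 by edgeR's test, a log2 fold change of 0.77 (SE 0.062, adjusted p = 3.24e-11), and in naïve cells the change was 0.00041 (SE 0.057, adjusted p = 0.998).

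*Cat* (ENSMUSG00000027187, chromosome 2, 103453849 to 103485160), the catalase of peroxisomes, was the one member higher in primed cells at both passages. Naïve and primed libraries had 85.0 and 89.0 CPM and 110.3 and 105 CPM at P5, and 86.8 and 89.2 CPM and 114 and 123 CPM at P15. Every primed library was above every naïve library. The log2 fold change was 0.34 (SE 0.047, adjusted p = 2.54e-07), or 1.26-fold, at P5 and 0.42 (SE 0.066, adjusted p = 1.01e-06), or 1.34-fold, at P15 by edgeR's test.

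From P5 to P15, most members were called in primed cells and *Gpx1* alone in naïve cells, where the change of *Hmox1*, −0.22, did not pass. In primed cells 7 of 10 were called, with *Sod2* and *Gpx1* higher and *Nqo1*, *Gclc*, *Srxn1*, *Nfe2l2* and *Gclm* lower at P15, against 47.1% of 15957 genes, 24.3% higher and 22.8% lower, by edgeR's test. With a fold of at least 2, *Nqo1* alone remained, against 11.6% of all genes. In naïve cells 1 of 10 was called, higher at P15, against 9.22% of 15683 genes, 4.21% higher and 5.01% lower, and 0 of 10 with a fold of at least 2, against 1.13%. The levels of the passages did not overlap for 10 members in primed and 6 in naïve cells, against 78.1% and 58% of all genes. The call of *Gclm* in primed cells, −0.23 (SE 0.066, adjusted p = 0.0044) by edgeR's test, was the narrowest, and it was lost without primed replicate 1 (adjusted p = 0.0263) or 2 (0.0164) at P5 and without primed replicate 1 at P15 (0.0282), where *Cat* was called as an added higher member (adjusted p = 0.0083). It was lost too without the low-count filter (0.0147), with the median feeder share taken off (0.0622) and by DESeq2's Wald test (0.0267), 6 of 12 alternatives in all. Library size alone moved the median of all genes to −0.13 in primed cells, where 34.2% of all calls were then higher in place of 51.5%, and called 2 members higher and 7 lower.

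The state effect itself differed between the passages for 4 of the 10 genes by edgeR's test of the interaction, *Sod2* in favour of primed cells at P15 and *Nqo1*, *Gclc* and *Srxn1* against them. *Srxn1* was not called in 8 of 15 alternatives, which left 3 members. Of all 16926 genes tested, 24.1% were called, 13.3% higher and 10.8% lower. With a fold of at least 2, *Nqo1* alone remained, against 7.16% of all genes. For *Nfe2l2*, *Hmox1*, *Gclm*, *Txnrd1*, *Cat* and *Gpx1* the differences lay between −0.12 and 0.12 and did not pass. Library size alone moved the median of all genes to −0.11 in this test, where 35.2% of all calls were then higher in place of 55%, and added *Txnrd1* to the lower members.

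**Figure D3:**
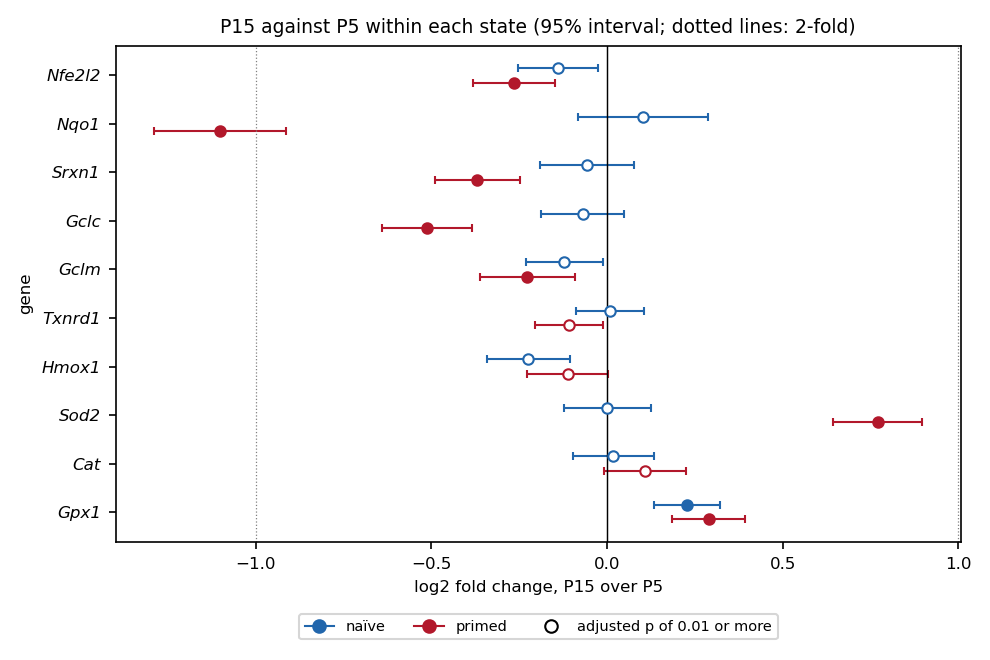
Log2 fold change of P15 over P5 for each of the 10 genes in naïve (blue) and primed (red) cells, with the 95% interval of edgeR's quasi-likelihood fit on 2 libraries per group; open symbols did not pass an adjusted p of 0.01, and dotted lines mark a 2-fold change. In naïve cells the genes lie between −0.22 (*Hmox1*) and 0.23 (*Gpx1*), and in primed cells between −1.10 (*Nqo1*) and 0.77 (*Sod2*).

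Each member was higher in all 8 naïve and primed libraries than in the MEF library, for which there was no replicate, and so were 32.1% of 16926 genes. MEFs had 7.95 CPM of *Nqo1*, 29.0 CPM of *Gclc* and 37.5 CPM of *Gclm*, and the ratio of a library to MEFs went from 2.01 to 4.63 for *Nqo1*, from 2.07 to 3.07 for *Gclc* and from 1.39 to 3.13 for *Gclm*. It went from 1.20 to 1.46 for *Nfe2l2*, from 1.08 to 2.21 for *Gpx1* and from 1.13 to 1.90 for *Hmox1*, with MEF levels of 195 CPM of *Gpx1* and 87.1 CPM of *Hmox1*. Fibroblast RNA in the proportion of the lowest marker, 2.51% to 6.61% of a library's MEF level, would make up 0.642% to 5.29% of a member's level, and in the proportion of the median marker, 14.1% to 24.5%, it would make up 3.2% to 21%. These shares take the feeder cells of the cultures to have the profile of the MEF library, which was not tested. Single markers were above MEFs in primed cells. *Dcn* had 461 CPM at P5 and 734 CPM at P15 against 211.5 CPM in MEFs, and *Ccl2* 293 and 393 CPM against 30.45 CPM. *Col1a1*, with 764 and 2653 CPM against 26130 CPM, was far below.

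Over the 8 naïve and primed libraries, the genes whose log2 CPM ran most like that of *Nfe2l2*, among 10000 genes with a mean of at least 10 CPM, were *Dennd4c* (Pearson's r = 0.982), *Kitl* (0.981), *Elmsan1* (0.981), *Fryl* (0.975) and *Lyst* (0.972). Among the members r was 0.824 for *Srxn1*, 0.689 for *Gclc* and 0.64 for *Nqo1*, between −0.169 and 0.0448 for *Txnrd1*, *Gclm*, *Cat* and *Hmox1*, −0.543 for *Gpx1* and −0.736 for *Sod2*. These are descriptions over libraries that share their group and their scaling.

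Of 81 further genes in 7 lists of related function, all of which were tested, the primed cells had 27 at a higher and 29 at a lower level at P5, and 31 and 21 at P15, by edgeR's test at an adjusted p under 0.01. That was 69.1% of the 81 at P5, against 62.3% of all genes, and 64.2% at P15, against 56.6%. The counts of the single lists stand beside the shares of all genes, 31.2% higher and 31.1% lower at P5 and 28.2% and 28.4% at P15. In NRF2 control, with 14 genes, 5 were higher and 5 lower at P5 and 3 and 4 at P15, and the median log2 fold changes of −0.085 and −0.0036 turned to 0.12 and 0.10 with library size alone. *Mafk*, a small MAF partner of NRF2, differed by −1.19 at P5 and −1.18 at P15 on the log2 scale. *Bach1*, the repressor that competes at the same element, had −0.37 and −0.43, and *Park7* (DJ-1) had −0.82 and −0.28. All of these passed the test at both passages, as did the other genes of the lists named below.

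Of the 22 glutathione genes, 10 were higher and 6 lower at P5 and 13 and 6 at P15, with medians of 0.15 and 0.45. Glutaredoxin *Glrx* was higher in primed cells, with 11.6 ± 1.79 CPM in naïve and 64.2 ± 2.95 CPM in primed cells at P5 (SD, n = 2 libraries each) and a difference of 2.51 at P5 and 2.80 at P15 on the log2 scale. *Gsta4*, a glutathione transferase for lipid aldehydes, was lower, at −1.80 and −1.98. *Gpx4*, the glutathione peroxidase for membrane lipids, was lower as well, from 617 ± 4.55 CPM in naïve to 214 ± 0.147 CPM in primed cells at P5, with log2 fold changes of −1.49 and −1.02. Like *Gpx1* and *Txnrd1* it encodes a selenoprotein. Not all genes of these enzyme families shared the direction. *Gpx3* and *Txnrd2* were higher in primed cells at both passages, at 0.68 and 0.62 and at 0.45 and 1.21. Of 6 genes for selenoprotein synthesis, 0 were higher and 3 lower at P5 and 0 and 2 at P15, with medians of −0.32 and −0.24. These included *Sephs2*, which makes selenophosphate, at −1.11 and −0.99, and *Secisbp2*, which binds the selenocysteine insertion element, at −0.49 and −0.38. Of the 6 genes, 50% were called at P5 and 33.3% at P15, below the 62.3% and 56.6% of all genes.

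The 3 other genes of superoxide dismutation did not share a direction. *Sod1*, the copper-zinc enzyme of the cytosol, had 332 ± 4.26 CPM in naïve and 169.7 ± 6.57 CPM in primed cells at P5 and 331 ± 12.2 and 251 ± 1.24 CPM at P15, with log2 fold changes of −0.94 and −0.41. Its difference between the passages, 0.54 (SE 0.065, adjusted p = 6.89e-08) by edgeR's test, had the sign of that of *Sod2*. *Ccs*, its copper chaperone, was lower as well, at −0.64 and −0.43. *Sod3*, the secreted enzyme, was higher in primed cells, from 3.67 ± 0.434 to 33.9 ± 1.37 CPM at P5 and from 2.02 ± 0.0564 to 104 ± 8.90 CPM at P15, with 47.1 CPM in MEFs. The means of the fibroblast markers *Dcn*, *Lum*, *Ccl2* and *Mmp2* were higher in primed cells as well. These are a selection. Of all 30 fibroblast markers, 8 went this way at P5 and 22 the other way, against 16 and 14 at P15. The summed level of the 30 was lower in primed cells at both passages. The part of fibroblast RNA in the level of *Sod3* was not tested.

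Of 17 genes of the thioredoxin and peroxiredoxin system, 4 were higher and 7 lower at P5 and 5 and 4 at P15, and the median of −0.13 at P5 turned to 0.072 with library size alone. *Sesn2* (sestrin) had log2 fold changes of −1.50 and −0.93, *Nxn* (nucleoredoxin) −0.87 and −0.42, and *Prdx5* 0.27 and 0.67. From P5 to P15 in primed cells, 11 of the 17 were higher and 1 lower, with a median of 0.33, against 24.3% and 22.8% of all genes. The state effect differed between the passages for 10 in favour of primed cells at P15 and 1 against them, against 13.3% and 10.8%. Other lists rose as well. Over all 81 genes of the 7 lists, 36 were higher and 16 lower between primed passages, with a median of 0.22. Their state effect differed for 28 in favour of primed cells at P15 and 7 against them. Between primed passages, heme, iron and NADPH supply had 9 higher and 2 lower, NRF2 control 5 and 6, and detoxification targets 0 and 2. Of 12 genes of heme, iron and NADPH supply, 4 were higher and 4 lower at P5 and 7 and 1 at P15, with medians of 0.045 and 0.41. Ferritin heavy chain *Fth1* was higher at 1.10 and 1.26, and *Idh1* and *Me1*, which supply NADPH, at 0.26 and 0.98 and at 0.26 and 0.48. Of 7 detoxification targets of NRF2, 3 were higher and 2 lower at P5 and 2 and 2 at P15, with medians of 0.21 and −0.13. The exporter *Abcc4* was lower at −1.08 and −1.09, and *Cbr1* and *Ephx1* were higher at 0.41 and 0.54 and at 0.21 and 0.28.

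**Figure D4:**
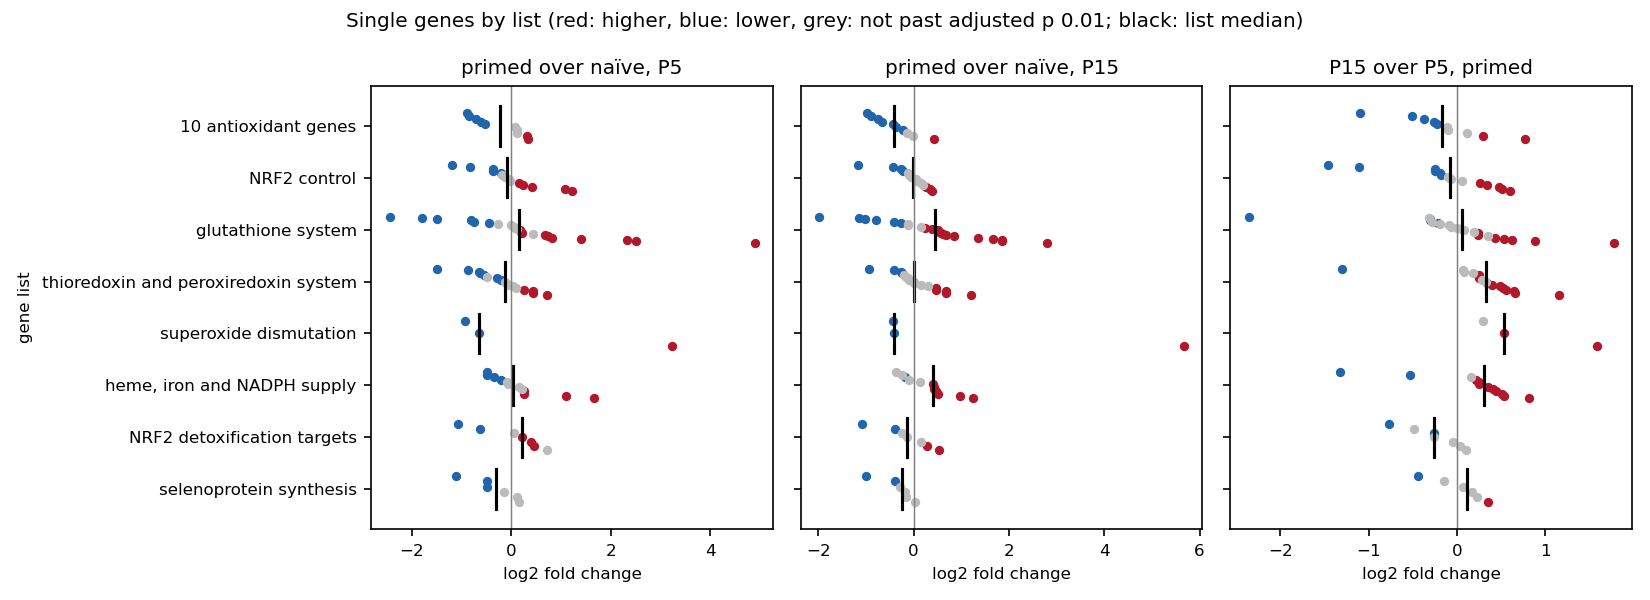
Log2 fold change (horizontal axis) of each gene of the 10 antioxidant genes and of the 7 lists (vertical axis), for primed over naïve cells at P5 and at P15 and for P15 over P5 in primed cells; red and blue points passed an adjusted p of 0.01 as higher and lower, grey points did not, and black bars are list medians. The median of the 10 genes lies at −0.23 at P5 and −0.40 at P15, and that of the glutathione list at 0.15 and 0.45.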

How the data were processed

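RNA-seq of 9 libraries was used, 2 for each state at each passage and 1 of MEFs, with groups read from the sample titles. The authors sequenced poly(A) RNA, trimmed reads with Cutadapt, aligned them with HISAT2 to mm10 and deposited raw counts per Ensembl gene from featureCounts. The treatment of strand and of multiply aligned reads, and the annotation release, are not given in the sources used here. Names and coordinates come from GENCODE M21, which named 54165 of the 54232 IDs, and 92 spike-in entries with 0 counts were left out. RefSeq promoter windows (GRCm38.p6) were at hand for 8 members, not for *Hmox1* and *Gclc*.

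CPM used TMM library sizes over all 9 libraries. Comparisons were fitted by edgeR 4.0.16 (quasi-likelihood, R 4.3.3) on the 4 libraries concerned, and the difference between passages on all 8, keeping genes that reached 10 counts in 2 or more libraries, with Benjamini-Hochberg adjustment over all genes tested. The thresholds, an adjusted p of 0.01 and optionally a fold of 2, follow the study. The biological coefficient of variation was 3.26% to 4.79%, and a chi-square between replicates was 2.1 to 3.28 per gene, where counting noise alone gives about 1. MEFs entered no test. Alternatives were DESeq2 1.42.0 (size factors, Wald test), scaling by library size alone, leaving out the low-count filter, a replicate block, all 8 libraries in a fit, MEF counts taken off in proportion to the lowest or the median fibroblast marker, and each replicate left out. A block with crossed replicate numbers was added after seeing the data. Code was tested on simulated data.

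Genes named are the 10 members, up to 3 of each list with the smallest adjusted p at both passages, and the 5 most like *Nfe2l2*. *Gpx3* and *Txnrd2* were added after their values were seen, for their opposite direction. The members and lists were chosen with earlier results of these data known.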

Additional observations from a re-analysis of the deposited data

Results flagged for a closer look

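The effect of the primed state differed between P15 and P5 for 4 of the 10 genes, by edgeR's test of the interaction with Benjamini-Hochberg adjustment. The difference, P15 minus P5 on the log2 scale, was −1.20 for *Nqo1* (adjusted p = 6.22e-09), −0.44 for *Gclc* (adjusted p = 1.47e-04), −0.31 for *Srxn1* (adjusted p = 0.00543) and 0.78 for *Sod2* (adjusted p = 1.14e-08). Groups of 2 libraries are too small for a test of single outlying libraries.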

How the results depend on the processing

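The calls of *Gclm*, *Txnrd1*, *Hmox1*, *Gpx1*, *Cat* and *Nqo1* between the states held in direction and threshold at both passages under every alternative run, as did that of *Sod2* at P5 and *Gclc* at P15. Leaving out each replicate in turn gave 7 members called at P5, 7 to 8 at P15, 1 between naïve passages (*Hmox1* in place of *Gpx1* without naïve replicate 2 at P5), 6 to 7 between primed passages and 3 to 4 for the difference. Between naïve passages 2 members were called in place of 1, *Gpx1* with *Hmox1*, under library size alone, under the replicate block and in the fit of all 8 libraries, and 0 without a low-count filter, where *Gpx1* had an adjusted p of 0.0243 by edgeR's test. All genes called between naïve passages were 1446, but 551 without the filter, 822 with the median feeder share taken off and 2783 with the replicate block.

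By their titles same-numbered libraries share a number, and whether they share a preparation is not stated. Their deviations correlated at −0.127 at P5, −0.19 at P15, 0.161 in naïve and 0.159 in primed cells. The block left 7 members called at each passage, lost *Srxn1* at P15 (adjusted p = 0.0247 by edgeR's test), and gave 10225 genes called at P5, 7836 at P15, 8312 between primed passages and 3738 for the difference. With crossed pairs, a setting chosen after seeing the data, *Nfe2l2* passed at P5 as an added higher member, so that 8 were called.

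Directions turned only for values that did not pass the test. At P15 between states, *Nfe2l2* went to 0.092 with library size alone and to 0.010 with the median feeder share taken off, and from −0.061 to 0.022 over left-out replicates. Between naïve passages with library size alone, *Txnrd1* went to −0.016, *Sod2* to −0.023 and *Cat* to −0.0059. Without the filter *Txnrd1* went to −0.0013 and *Sod2* to −0.0085. *Sod2* went to −6.09e-05 with the block and to −0.0066 in the fit of all 8 libraries, and *Gclc* to 0.0013 with the median feeder share. Over left-out replicates there, *Txnrd1* ran from −0.048 to 0.064, *Sod2* from −0.075 to 0.072, *Cat* from −0.020 to 0.046 and *Srxn1* from −0.12 to 0.0059. Library size alone turned *Cat* between primed passages to −0.023, and in the difference *Cat* to −0.017 and *Gpx1* to −0.046. The cause was not tested. The call of *Srxn1* at P15 (adjusted p 0.00117 to 0.172 over the alternatives), its difference between passages (0.000232 to 0.0732) and the change of *Gclm* between primed passages (5.08e-05 to 0.0622) stood on both sides of the threshold. With 2 libraries per group, leaving one out assumes that the lone library varies like the others.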

Other observations

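A pair of genes of the NRF2 and glutathione lists is given here that was chosen after its values were seen. *Keap1*, whose protein holds NRF2 in check, had 40.1 and 39.0 CPM in naïve and 34.2 and 33.8 CPM in primed libraries at P5, and 40.4 and 39.6 CPM and 53.7 and 52.0 CPM at P15. Its log2 fold change was −0.18 (SE 0.068, adjusted p = 0.0181) at P5 and 0.39 (SE 0.081, adjusted p = 6.57e-05) at P15, and the difference between the passages was 0.59 (SE 0.10, adjusted p = 2.57e-05), by edgeR's test. *Slc7a11*, the cystine transporter that feeds glutathione synthesis, had 2.70 ± 0.255 CPM in naïve and 78.9 ± 4.90 CPM in primed cells at P5, and 4.92 ± 0.187 CPM and 15.7 ± 1.04 CPM at P15 (SD, n = 2 libraries each). Primed libraries were above naïve libraries at both passages, with log2 fold changes of 4.89 (SE 0.10, adjusted p = 2.07e-26) and 1.66 (SE 0.16, adjusted p = 2.62e-11). In primed cells it fell between the passages, with a log2 fold change of −2.36 (SE 0.082, adjusted p = 5.27e-19) by edgeR's test. The MEF library had 25.3 CPM of *Slc7a11*, and the naïve mean was 10.7% of this at P5 and 19.4% at P15. The median fibroblast marker of naïve libraries was at 17.2% to 17.6% of MEFs at P5 and 21.9% to 23% at P15. The part of feeder RNA in the naïve level of *Slc7a11*, on which both state differences rest, was not tested.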
